A study of Mus musculus with 10 samples.

Results

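The region from 85300001 to 90000000 of mouse chromosome 2 (mm9), 4.7 Mb that carry the large olfactory receptor gene cluster of this chromosome, held 414 DNase I hypersensitive (DHS) sites of the 129028 in the deposited site list. Every site that overlapped the region by at least 1 bp was taken as a member, and the 87 footprints inside these sites, of 329076 in the footprint list, were taken with them. DNase I cuts accessible DNA, so a DHS site marks a stretch with many cuts, and a footprint marks a short stretch inside a site that was cut less than its surroundings, as happens under a bound protein. Members were taken by position alone, but the region itself was chosen with earlier results of these data known. The region was chosen as an example of gene-rich chromatin presumed silent in this cell type, but it was not poor in DHS sites. It carried more sites per Mb than its surroundings and far fewer footprints.

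The nuclei came from 3T3-L1 cells, mouse fibroblasts already committed to the fat cell lineage, with no genetic change named in the labels. Cells past confluence received 1 µM dexamethasone (a glucocorticoid), 0.5 mM 3-isobutyl-1-methylxanthine (which blocks phosphodiesterases and so raises cyclic AMP), 1 µg/mL insulin and 10% fetal calf serum, and were harvested 4 h later. Both of the 2 DNase samples are sequencing runs of 1 library, and the authors added reads they had already published from it before calling sites and footprints. Values below therefore come from 1 library without replicates. Intervals are exact 95% intervals for counting error, treat sites as independent and say nothing about variation between cultures. No test across replicates was possible, no read counts accompany the lists, and the depth behind each site is unknown. Another 8 RNA samples, in 4 groups of 2 (shRNA of scrambled sequence or against C/EBPβ, each at 0 h and 4 h), were not analysed here, so whether any receptor gene was transcribed was not tested.

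Olfactory receptors are G protein-coupled receptors that detect odorants in sensory neurons of the nose, where they signal through the G protein subunit Gnal, the adenylyl cyclase Adcy3 and the channel subunit Cnga2. Their genes lie in long tandem arrays that arose by repeated duplication, so neighbouring genes can be near-identical copies. A mature olfactory neuron expresses a single receptor allele, the other receptor genes are packed in heterochromatin, and scattered enhancers bound by Lhx2 and Ebf factors drive the choice. Whether fibroblasts use these genes was not tested here.

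The gene content of the cluster was described from the RefSeq table of GRCm38.p6, a later build whose positions cannot be set beside the mm9 positions of the sites. Gene order was used only to count genes, and no gene was attached to a site. The longest uninterrupted run of receptor genes on chromosome 2, allowing up to 10 other genes between receptors, went from Olfr987 to Olfr1274 and ended next to Ptprj, a receptor tyrosine phosphatase gene. It held 293 of the 377 receptor genes of the chromosome, 222 of them protein coding and 71 pseudogenes, with 39 other genes among them. The coding receptor genes had a median length of 945 bp, since most have a coding part without introns. Whether this run ends at the region's mm9 borders was not tested.

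Promoter sequence was available in RefSeq (GRCm38.p6) for 186 of these 293 genes, in 187 entries, and the 250 bases before each annotated start were read. These stretches were rich in A and T. Their median GC share was 30.8% (interquartile range 27.0 to 33.2%), against 52.4% (45.2 to 61.2%) over the 32851 entries of all genes. The median number of CG dinucleotides was 1 against 6, and 86 entries (46.0%) had none, against 7.87% of all entries. The sequences below show this composition, with CG in capitals, for the first receptor of the run with an entry (Olfr988, minus strand, chr2:85353925-85354174 in GRCm38.p6, GC share 38.4%) and for the first receptor at the run's median GC share (Olfr1015, plus strand, chr2:85785224-85785473 in GRCm38.p6, GC share 30.8%).
Olfr988: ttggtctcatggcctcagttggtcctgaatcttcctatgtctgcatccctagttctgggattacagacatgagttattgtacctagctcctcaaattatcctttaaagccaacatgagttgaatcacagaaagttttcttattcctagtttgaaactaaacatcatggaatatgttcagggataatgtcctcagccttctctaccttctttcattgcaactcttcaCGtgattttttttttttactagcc
Olfr1015: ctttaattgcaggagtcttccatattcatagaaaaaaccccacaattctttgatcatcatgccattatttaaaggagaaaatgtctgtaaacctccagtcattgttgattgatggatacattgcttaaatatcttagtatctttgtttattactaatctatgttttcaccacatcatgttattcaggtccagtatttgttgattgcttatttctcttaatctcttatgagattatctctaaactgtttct

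Olfr988 carried 1 CG in its 250 bases and Olfr1015 carried none. Letters of 4 motifs were searched on both strands of the same stretches. TTGCNNAA, the core of sites for C/EBP factors, which act early in adipogenesis, stood in 35 of the 187 entries (18.7%) and in 9.56% of all entries. TGANTCA, the core of AP-1 sites, stood in 21 (11.2%) and in 6.75% of all, and TATAAA in 97 (51.9%) and in 12.4% of all. CCCNNGGG, the core of the O/E site bound by Ebf factors, stood in 4 (2.14%) and in 11.8% of all. The entries of all genes had a higher median GC share, 52.4% against 30.8%, and were not matched to the receptor entries. The part of base composition in these differences was not tested. A match shows only that the letters are present, and many annotated starts of receptor genes are the start codon, so these stretches need not be promoters in use.

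Site density was the first measure compared. The receptor region had 88.1 sites per Mb (95% interval 79.8 to 97.0). The 3 Mb on either side held 177 sites on the left, 59.0 per Mb (50.6 to 68.4), and 182 on the right, 60.7 per Mb (52.2 to 70.1). The region thus had 1.47 times the density of the 2 flanks together (1.28 to 1.70). The rest of chromosome 2, measured from its first to its last site, held 9414 sites or 54.1 per Mb (53.0 to 55.2), and the region exceeded it 1.63-fold (1.47 to 1.80). Sites covered 4.32% of the region, 4.07% of the flanks (3.67% of the left and 4.47% of the right) and 3.46% of the rest of the chromosome.

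The sites in the region were narrower than those around it. Their median width was 455 bp (interquartile range 317.25 to 595.25 bp), against 581 bp in the flanks, 551 bp in the rest of chromosome 2 and 532 bp in the whole list. Widths ran from 251 bp, the smallest in the list, to 1732 bp. The smallest widths, 251 and 252 bp, were found in 39 sites (9.42%) of the region, 3.34% of flank sites and 4.33% of sites in the rest of the chromosome.

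The extra sites were the narrow ones. Sites were sorted into 5 width classes that each hold about the same number of sites of the whole list. In the narrowest class, 251 to 340 bp, the region had 122 sites or 26.0 per Mb, 2.60 times the flank density (1.89 to 3.60). The excess over the flanks was 1.98-fold at 341 to 470 bp, 1.62-fold at 471 to 600 bp and 1.19-fold (0.845 to 1.68) at 601 to 793 bp. In the widest class the order turned, and the region had 33 sites or 7.02 per Mb against 15.0 per Mb in the flanks, a ratio of 0.468 (0.304 to 0.705). Counting only sites wider than the list's median of 532 bp, the region had 30.2 per Mb, the flanks 34.5 and the rest of the chromosome 28.5, ratios of 0.876 (0.702 to 1.09) and 1.06 (0.891 to 1.25). Sites of that median width or narrower stood at 57.9 per Mb in the region and 25.3 in the flanks, 2.28 times as dense (1.87 to 2.80), so the higher density against the flanks rested on narrow sites.

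Footprints were scarce. At least 1 footprint was found in 64 of the 414 sites, 15.5% (12.1 to 19.3%), where the whole list had 45.4% and the rest of chromosome 2 had 49.9%. The share was 40.1% (32.8 to 47.7%) in the left flank and 67.6% (60.3 to 74.3%) in the right. Of the 64 sites, 48 held 1 footprint, 12 held 2, 1 held 3 and 3 held 4. No site of the region held 5 or more (0 of 414, which allows a share of up to 0.725%, taking 3 counts as the limit), a number reached by 26.7% of flank sites and 22.1% of sites in the rest of the chromosome. Per site the region had 0.210 ± 0.571 footprints (SD over 414 sites), against 3.40 ± 5.22 in the flanks (359 sites).

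Per length of site sequence, which takes the narrower sites into account, the contrast was somewhat smaller. The region carried 0.428 footprints per kb of site (0.343 to 0.528), the left flank 4.42, the right flank 5.47 and the rest of chromosome 2 4.40. The ratio to the 2 flanks together was 0.0857 (0.0682 to 0.107), and to the rest of the chromosome 0.0973 (0.0779 to 0.120). Footprints covered 1.14% of the site sequence in the region and 9.77% in the flanks. Per Mb of genome there were 18.5 footprints in the region and 203.3 in the flanks, although the region had more sites.

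**Figure D1:**
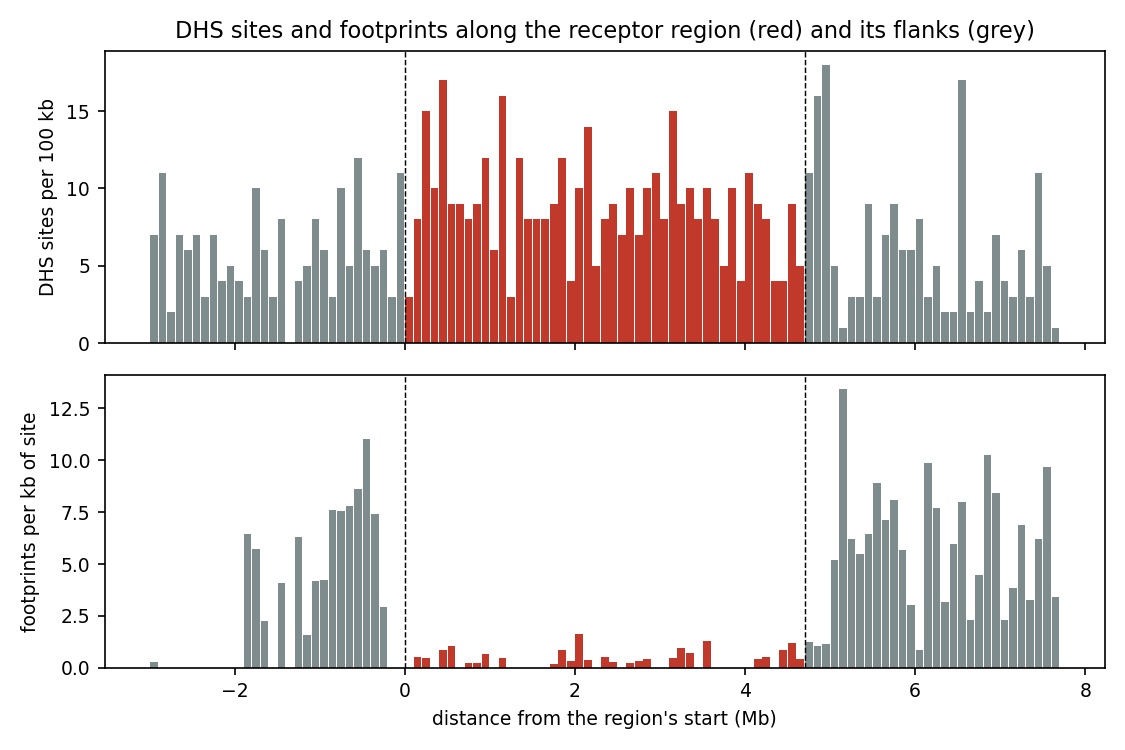
DHS sites per 100 kb (upper panel) and footprints per kb of site (lower panel) in bins of 100 kb, by distance from the region's start in Mb; red bars are the receptor region, grey bars the 3 Mb flanks, dashed lines the borders. Bins hold a median of 9 sites in the region (3 to 17) against 6 in the left flank (0 to 12) and 5 in the right (1 to 18), and footprints per kb stay low from the last bins before the left border to 300 kb past the right one, and the outer end of the left flank is also nearly free of footprints.

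Narrow sites hold few footprints everywhere in this list, and the region's sites were narrow, so widths were matched. In every one of the 5 width classes a smaller share of sites had a footprint in the region than in the rest of chromosome 2. The shares were 2.46% against 7.65% at 251 to 340 bp, 6.93% against 19.2% at 341 to 470 bp and 18.0% against 45.3% at 471 to 600 bp. At 601 to 793 bp they were 27.5% against 76.0%. Among the widest sites, 19 of 33 in the region had a footprint, 57.6% (39.2 to 74.5%), against 92.6% (91.3 to 93.7%) in the rest of the chromosome, and they held 0.970 footprints each against 9.05. The interval of the narrowest class (0.510 to 7.02%) reached into that of the rest of the chromosome (6.46 to 8.99%), and those of the other 4 classes did not.

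The number of footprints predicted from the region's site widths was 514.6, the sum of average numbers for sites of like width, in 50 width classes of the list without the region. The 87 observed were 0.169 times that number (0.135 to 0.209). The same ratio was 1.08 in the flanks (1.02 to 1.14) and 1.04 in the rest of the chromosome. Sites of the region with a footprint were wider, with a median of 652.5 bp, than those without, with 434 bp, as they were in the rest of the chromosome (712 against 414 bp). Read depth over the region is unknown, and the sources used here do not say how reads that match several gene copies were treated. The part of either in the low number was not tested.

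**Figure D2:**
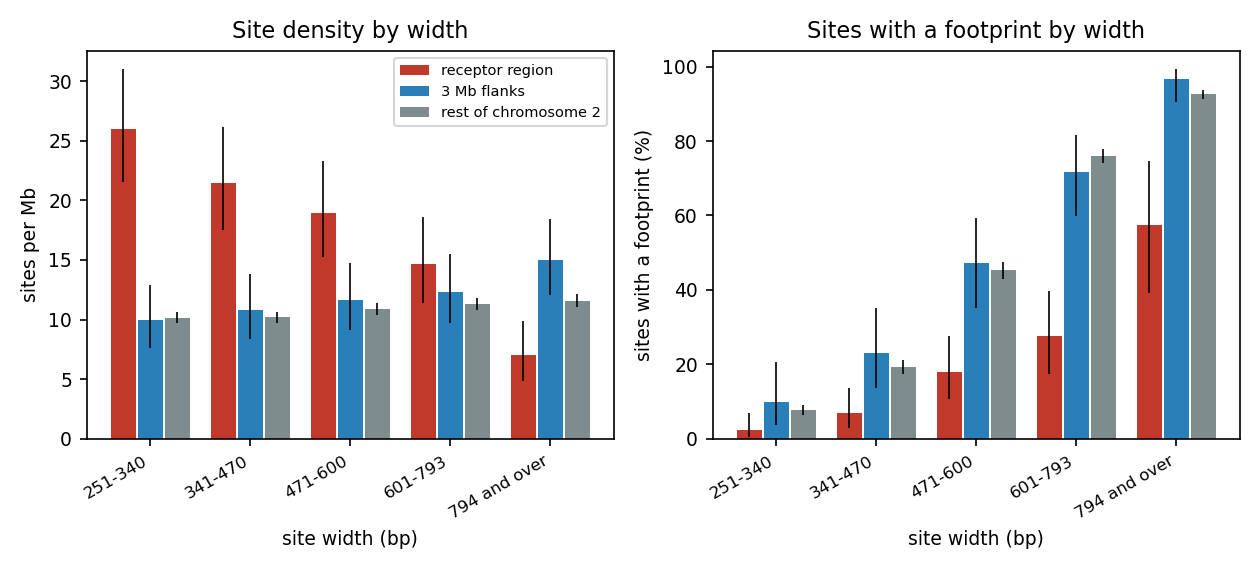
Sites per Mb (left) and percent of sites with a footprint (right) in 5 classes of site width in bp; red is the receptor region, blue the 3 Mb flanks, grey the rest of chromosome 2, and lines are exact 95% intervals for counting error. The region has 26.0 sites per Mb in the narrowest class and 7.02 in the widest, and its share with a footprint is the lowest of the 3 in each class.

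The scarcity of footprints ran along the whole region, and the higher site density along all but its right end. In 10 consecutive stretches of 470 kb, site density lay between 59.6 and 106.4 per Mb, with a median of 90.4, and 9 of the 10 stretches were above the density of both flanks. The lowest, 28 sites, was the last stretch before the right border. Footprints per kb of site lay between 0.119 and 0.787, and the share of sites with a footprint between 5.56 and 32.1%. Both were highest in the last stretch. Median site widths lay between 348 and 484.5 bp. The flanks were less even. In 6 bins of 500 kb each, footprints per kb ran from 0 to 7.45 in the left flank and from 1.99 to 7.27 in the right. The outer 2 bins of the left flank, from 82300001 to 83300000, held 59 sites and 1 footprint, so a stretch with very few footprints was found outside the region too.

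The change in footprints lay a little outside the given borders. On the left, the 300 kb outside the border had 20 sites and 0.957 footprints per kb, and the 300 kb beyond that had 23 sites and 9.18 per kb. On the right, the 300 kb outside the border had 45 sites, 150 per Mb, with a median width of 445 bp and 1.14 footprints per kb. The next 300 kb had 9 sites with a median width of 781 bp and 6.62 footprints per kb. Sites just outside the right border were thus numerous, narrow and poor in footprints, like those inside. With flanks that start 500 kb away from each border, a choice made after seeing the data, the region's site density was 1.56 times theirs.

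Long stretches without a site were few. Neighbouring sites lay a median of 7202 bp apart (interquartile range 3243 to 14790 bp) in the region and 9644.5 bp in the rest of the chromosome. In the left flank the median was 9396 bp, and in the right flank 6432 bp, shorter than in the region. Of the 413 distances in the region, 5 (1.21%) were over 50 kb, against 6.25% in the left flank and 9.94% in the right. In the rest of the chromosome 8.01% were, and the longest was 1192429 bp. The 5 longest stretches without a site in the region measured 67.3 kb (89037080 to 89104360), 65.1 kb (86515224 to 86580356), 61.5 kb (87512293 to 87573779), 53.4 kb (87773932 to 87827309) and 50.3 kb (89508268 to 89558611).

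Windows of the same length set the region beside the rest of the genome. Chromosome 2 was divided into 37 windows of 4.7 Mb aligned to the region. The region had the most sites per Mb of the 37; the other 36 ran from 37.9 to 68.3, with a median of 56.0. It also had the fewest footprints per kb of site; the others ran from 0.471 to 8.00, with a median of 4.05. The lowest of these others, from 94700001 to 99400000, had 65.3 sites per Mb, 0.471 footprints per kb and a smaller share of sites with a footprint, 6.51%. Over 537 windows of the whole list, 3 of the other 536 had more sites per Mb and 24 had fewer footprints per kb. The 24 had between 21.1 and 78.5 sites per Mb, fewer than the region. A smaller share of sites with a footprint than in the region was found in 65 of the 536. Of the 19 windows with 75 or more sites per Mb, 2 had fewer footprints per kb than the region, both on chromosome 6. These ranks describe 1 library and windows whose starts were set by the region or by the first site of a chromosome.

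**Figure D3:**
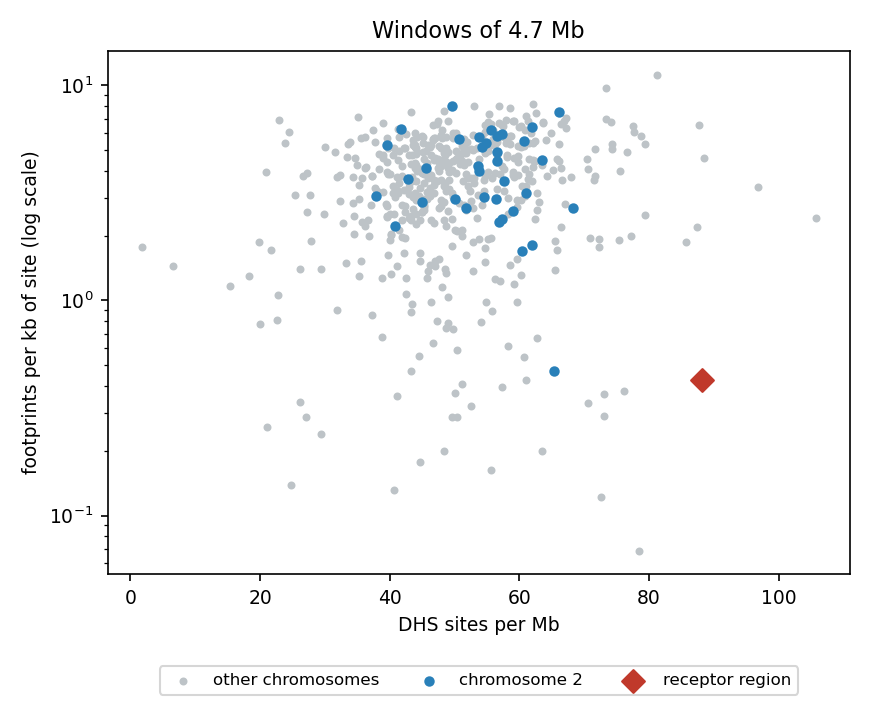
DHS sites per Mb (x axis) and footprints per kb of site (y axis, log scale) in 537 windows of 4.7 Mb; the red diamond is the receptor region, blue points the other 36 windows of chromosome 2, grey points windows of other chromosomes. The region lies at 88.1 sites per Mb and 0.428 footprints per kb, to the right of all windows with fewer footprints per kb.

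Of the single sites in the region, 3 had 4 footprints. The widest of them, from 89833435 to 89834597, was 1163 bp wide and had 3.44 footprints per kb. The others were a site of 674 bp from 88861572 to 88862245, with 5.93 per kb, and a site of 637 bp from 87340637 to 87341273, with 6.28 per kb. A site of 984 bp from 85503714 to 85504697 had 3, and the next in order, from 85791090 to 85792272, had 2 in 1183 bp. No 2 of these 5 sites lay in the same stretch of 470 kb. The 4 widest sites of the region had no footprint at all. They measured 1732 bp (87006267 to 87007998), 1524 bp (89752180 to 89753703), 1411 bp (87233591 to 87235001) and 1214 bp (87174822 to 87176035). The fifth, of 1205 bp from 89854930 to 89856134, had 1. Outside the region, 92.6% of the sites of chromosome 2 in the widest class, 794 bp and over, held a footprint.

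The footprints of the region were long. The footprint list ends at 30 bp, and 42 of the 87 footprints (48.3%, 37.4 to 59.2%) had exactly that width, against 10.5% in the flanks and 11.5% in the rest of chromosome 2. The median width was 29 bp against 19 and 21 bp. Sites with few footprints have longer ones elsewhere too. In sites with 1 footprint, the share at 30 bp was 43.8% in the region (29.5 to 58.8%), 40.5% in the flanks (24.8 to 57.9%) and 29.9% in the rest of the chromosome (27.1 to 32.9%), and the intervals overlapped. In sites with 2 footprints it was 54.2% of 24 (32.8 to 74.4%), 30.6% of 62 (19.6 to 43.7%) and 23.5% of 1404 (21.3 to 25.8%). Here the interval of the region did not overlap that of the rest of the chromosome. These intervals treat footprints as independent, although in this set they lie 2 to a site. Sites of the matching pairs described below are among those of the region. Footprints of the region lay toward the middle of their sites to the same degree as elsewhere, at a mean of 0.293 of the distance from centre to edge in the region and in the rest of the chromosome.

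**Figure D4:**
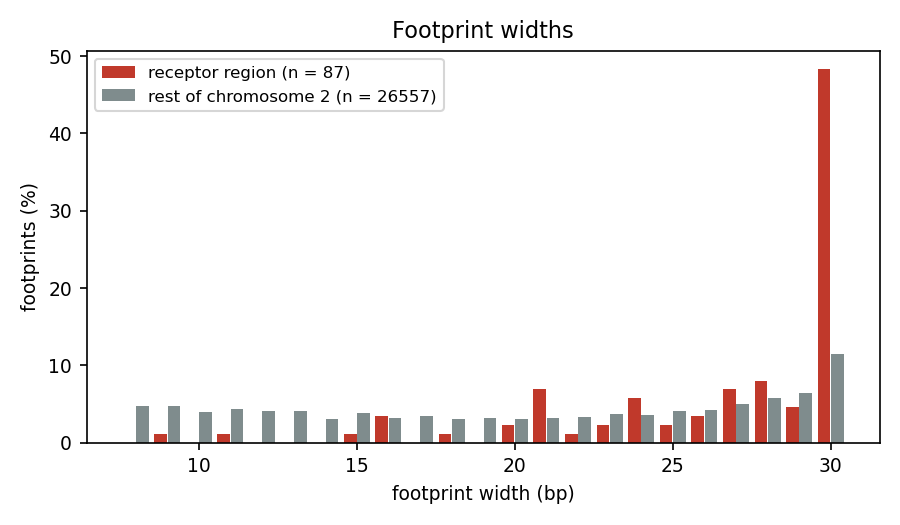
Percent of footprints (y axis) at each width in bp (x axis) for the 87 footprints of the receptor region (red) and the 26557 of the rest of chromosome 2 (grey). At 30 bp, the longest width in the list, stand 48.3% of the red and 11.5% of the grey footprints.

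Each footprint carries a score from the authors, negative throughout and read here as stronger when more negative, on a scale that the sources used here leave unnamed. The median finite score was -4.07 in the region, -4.33 in the flanks and -4.34 in the rest of the chromosome. That order did not hold among sites with 1 to 4 footprints, where the medians were -4.07, -3.95 and -3.94. With 1 footprint they were -3.94, -4.02 and -3.81, and with 2 footprints -4.50, -3.97 and -3.89. The strongest finite score of the region was -13.5, for a 30 bp footprint from 87124767 to 87124796. The next 4 lay between -6.81 and -6.38, at 88861706 to 88861732, 89403189 to 89403209, 88483711 to 88483740 and 88477984 to 88478013. A score of -Inf was given to 4 of the 87 footprints (4.60%), against 0.113% in the rest of the chromosome. Among sites with 1 footprint the share was 3 of 48 (6.25%) in the region, 1 of 37 (2.70%) in the flanks and 14 of 1002 (1.40%) in the rest of the chromosome. Those 4 lay in 4 sites, from 87340922 to 87340951, 88665023 to 88665052, 89592837 to 89592860 and 89855265 to 89855282.

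Some sites of the region came in matching copies. Among sites wider than 252 bp, 22 of the 2979 pairs of sites within 100 kb of each other had exactly the same width, 0.739% of pairs (0.463 to 1.12%), against 0.195% (0.160 to 0.236%) in the rest of chromosome 2. The right flank had nearly the region's value, 9 of 1305 pairs or 0.690% (0.316 to 1.31%), and the left flank had 1 of 905. The 22 pairs of the region involved 41 of 375 sites (10.9%). In 4 pairs the 2 sites also held the same number of footprints, at the same distance from the site's start and of the same width. They made up 8 of the 64 sites with a footprint, 12.5% (5.55 to 23.2%), against 15 of 4694 (0.320%) in the rest of the chromosome, 6 of which lay in the right flank. Only sites of equal width were compared, so like sites of unequal width are not in these shares. Sites of 746 and 740 bp starting at 88151222 and 88163131 each held 1 footprint of 28 bp, both scored -4.10. Sites of 602 and 668 bp starting at 88853376 and 88894738 each held 1 of 21 bp, both scored -3.94. Sequence of mm9 was not used here, so whether the paired sites have near-identical sequence was not tested, and a site in a duplicated stretch is uncertain as to which copy was cut.

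The first pair were sites of 1183 bp from 85791090 to 85792272 and from 85815270 to 85816452, 24180 bp apart, each with a 26 bp footprint at position 805 and a 30 bp footprint at position 1073 of the site, counted from 1. The scores of the first footprint were the same to the printed digits, -4.19, and those of the second were -4.61 and -4.71. The second pair, of 603 bp from 86095361 to 86095963 and from 86116155 to 86116757, had a 28 bp footprint at position 348, with scores of -3.85 and -3.58. The third pair, of 527 bp from 87109130 to 87109656 and from 87124636 to 87125162, had 30 bp footprints at positions 132 and 254. Their scores differed, -5.15 against -13.5 at the first position and -6.26 against -4.85 at the second, and the -13.5 is the strongest finite score of the region. Another site of 527 bp, from 87149075 to 87149601, held 1 footprint, of 30 bp at position 132 as in this pair, with a score of -5.74, and none at position 254. A further 2 pairs of equal width shared a part of their footprint positions, sites of 984 bp starting at 85487601 and 85503714 (2 positions, of 2 and 3 footprints) and sites of 864 bp starting at 86214803 and 86263067 (1 position, of 2 and 1 footprints). The fourth pair, of 353 bp from 88477874 to 88478226 and from 88513066 to 88513418, had a 30 bp footprint at position 111, with scores of -6.38 and -5.81. A setting added after seeing the data left out all sites that share their width with another within 100 kb. It also took out such sites of 251 and 252 bp, unlike the count of pairs above. Of the remaining sites of the region, 13.8% had a footprint, and the flanks and the rest of the chromosome were not compared under this setting.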

How the data were processed

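DHS sites and footprints were called by the authors on the pooled reads of 1 DNase library, per the labels. The build is mm9 and HOMER is named, with no version or role, per the submitters' processing notes. The deposited site list gives positions alone. The deposited footprint list gives positions and a column headed p-value whose values are all negative or -Inf. The authors gave this score to each footprint called on the pooled reads, per the file headers and labels, and it was used only to rank. List positions were taken as BED and are printed 1-based.

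A site was a member at an overlap of 1 bp with the region, and each footprint lay fully inside a site. Windows and bins took sites by their centre. Intervals are exact Poisson intervals for counts, exact Clopper-Pearson intervals for shares (for a count of 0, the limit is 3 counts of the total) and exact conditional binomial intervals for ratios. Named regions follow a rule: the 5 sites with the most footprints, the 5 widest sites, the 5 longest stretches without a site and the 5 strongest finite scores. Matching pairs were chosen after their values were seen. The region, the rule and the lists were chosen with earlier results of these data known. On simulated data, only the ratio of observed to predicted footprints was checked against its set value. The steps for matching pairs, spacing and windows were not simulated. The alternatives changed the borders, the flanks, the sets of sites or footprints and the width classes. RNA samples were not analysed here. Python 3.11.15, numpy 2.4.6, pandas 2.3.3, scipy 1.17.1 and matplotlib 3.10.9 were used.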

Additional observations from a re-analysis of the deposited data

How the results depend on the processing

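No paired analysis was possible because sites and footprints were called once, on pooled reads of 1 library. Of 37 values under alternatives, 28 stayed within the 95% counting interval of the reported value, 8 moved out of it and 1 reversed. The ratio of site density to the flanks was 0.876 with the wider 50% of sites, where the region's density was 30.2 per Mb and 34.5% of its sites had a footprint. The ratio was 1.23 with flanks of 1 Mb, which include the site-rich 300 kb past the right border. With the stronger 50% of footprints, 5.56% of sites had one, at 0.143 per kb, and with footprints under 30 bp alone 9.42%, at 0.222 per kb, since fewer footprints remain. In the flanks the same 2 settings left 35.7 and 48.7% of sites with a footprint, and the wider 50% of sites gave 79.2%. Without sites that share a width within 100 kb, those of 251 and 252 bp included, site density was 73.8 per Mb. This setting was added after the data were seen, and the flanks were not compared under it. Trimming the region by 250 or 500 kb at each border left site density, median width, share with a footprint and footprints per kb within their intervals. The ratio of observed to predicted footprints ran from 0.156 to 0.169. Depth over sites is unknown, so a footprint that was not called need not be absent.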

Other observations

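Matching pairs of footprinted sites also stood just past the right border. From 90151894 to 90270454, 3 pairs of sites had the same width and the same footprint positions. They were sites of 602, 251 and 596 bp, and the copies lay 75953, 76466 and 78235 bp apart. In the pairs of 602 and 596 bp every footprint had the same score as its counterpart to the printed digits, -4.20 in the first and -4.05 and -3.99 in the other, whereas in the pair of 251 bp the scores were -4.73 and -5.54. The left flank had 0 such sites among its 71 with a footprint, which allows a share of up to 4.23% (3 counts as the limit).

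Among windows of 4.7 Mb with 75 or more sites per Mb, 2 on chromosome 6 had fewer footprints per kb than the receptor region. The window from 101700177 to 106400176 had 78.5 sites per Mb and 11 footprints in 369 sites, 0.0688 per kb. The window from 59400177 to 64100176 had 76.2 sites per Mb and 0.380 footprints per kb. Their median site widths, 415 and 443.5 bp, were below the 455 bp of the receptor region. Just under 75 sites per Mb, windows on chromosome 15 from 12400224 and on chromosome 6 from 73500177 each had 73.0 sites per Mb. They had 0.366 and 0.291 footprints per kb. The next window on chromosome 15, from 17100224, had 72.6 sites per Mb and 0.122 footprints per kb. A window on chromosome 8 from 50041501 had 70.6 sites per Mb and 0.334 footprints per kb. Genes in these windows were not analysed here.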
